A study of Mus musculus with 2 samples.

Results

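The microRNAs (miRNAs) mmu-miR-2861 and mmu-miR-3960 (miR-2861 and miR-3960 here) are made from neighbouring hairpins on mouse chromosome 2 and are known as an osteoblast cluster. They were found by name among the miRNAs on a mouse miRNA array, and are 2 of the 1247 miRNAs it holds and 2 of the 257 that were well above background on both arrays of the study. The samples were knee joint cartilage from male mice at 8 weeks of age, with 1 array of a control sample whose genotype is labelled wildtype and 1 array of a sample labelled Col2a1Tsc1KO. In the latter, per the study's design, deletion of Tsc1 was made specific to Col2a1, the gene of the main collagen of cartilage. Tsc1 restrains the growth kinase complex mTORC1, and the design asks which miRNAs mTORC1 induces as osteoarthritis develops. How many mice each sample held and how complete the deletion was are not given in the sources used here. With 1 array per group there was no replicate check of any difference, no p-value was computed, and the errors given are standard errors (SE) over the spots of a probe, which hold technical noise alone.

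miRNAs are short RNAs that pair, mainly through bases 2 to 8 (the seed), with messenger RNAs and lower their output. In osteoblasts, the cells that make bone, miR-2861 is known to repress Hdac5, a deacetylase that destabilises the bone regulator RUNX2, and miR-3960 is known to repress Hoxa2, a homeobox gene that holds Runx2 down. RUNX2 in turn is known to act on the transcription of this cluster, so that the pair is described as part of a positive loop in bone formation. RUNX2 also drives the late, hypertrophic stage of chondrocytes, the cells of cartilage. The array held no probe for the messenger RNAs of Runx2, Hdac5, Hoxa2 or Tsc1.

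The sequences are shown because both miRNAs are almost pure G and C and are read through very short probes, on which every value below rests. The mature miR-2861 of RefSeq (GRCm38.p6, chr2:32712819-32712837, minus strand) has 19 bases, 94.7% of them G or C, and its seed is in capitals.
miR-2861: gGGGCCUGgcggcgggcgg
Each miRNA had 2 probes, which pair with the 3′ end of the miRNA and differ from each other by 1 base in length.
miR-2861, 9 bases: ccgcccgcc
miR-2861, 10 bases: ccgcccgccg
miR-3960, 11 bases: cccccgcctcc
miR-3960, 12 bases: cccccgcctccg
The stretch that spans both hairpins (GRCm38.p6, chr2:32712807-32712972, minus strand, 166 bases, 78.3% G or C) is given 5′ to 3′, and the capitals mark the bases that the longest probe of miR-3960, and then that of miR-2861, pairs with.
Mir3960 and Mir2861: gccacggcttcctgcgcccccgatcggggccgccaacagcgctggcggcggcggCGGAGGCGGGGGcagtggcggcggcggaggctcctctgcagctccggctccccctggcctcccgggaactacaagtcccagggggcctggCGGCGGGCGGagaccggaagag

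The Mir3960 hairpin takes the first 73 bases of this stretch, the Mir2861 hairpin takes the last 82, and 11 bases lie between them. The paired bases are at chr2:32712907-32712918 for miR-3960 and at chr2:32712819-32712828 for miR-2861, and each occurs 1 time in the stretch. In the RefSeq annotation neither hairpin lies within another gene. The hairpins are on the same strand as Cdk9, which encodes a kinase that releases paused RNA polymerase II, and the annotated start of Cdk9 is 22 bases beyond the Mir2861 hairpin. Both hairpins thus lie in the 250 bases before that start. On the other side, the long noncoding RNA gene Gm33457 is 337 bases from the Mir3960 hairpin. None of the other mature miRNAs among the 1679 names in the RefSeq table holds the exact bases paired by any of the 4 probes. With 1 mismatch allowed, the target of the 9-base miR-2861 probe is found in 3 others, miR-3077-5p, miR-7671-3p and miR-8101, and the targets of the longer probes in none. The seed of miR-2861 is shared in that table by miR-3091-3p alone, which was not well above background on either array.

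On the Col2a1Tsc1KO array miR-3960 was lower and miR-2861 was slightly higher than on the control array. With the arrays brought to a common 75th percentile, taken over probes that stood well above background on each, miR-3960 differed by -0.76 ± 0.01 (SE over spots) on the log2 scale, Col2a1Tsc1KO minus control, which is 1.69-fold lower. The difference of miR-2861 was 0.11 ± 0.02, which is 1.08-fold higher. Neither passed the 2-fold threshold used for counts, which 15.6% of the 257 measured miRNAs passed upward and 17.5% passed downward, 33.1% in all. In bulk tissue, fewer cells of a type and less RNA per cell cannot be told apart.

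For miR-3960, the scaled intensity of the 11-base probe had a lowest value of 1280, a median of 1314 and a highest value of 1372 over 19 usable spots of the control array. Over 20 spots of the Col2a1Tsc1KO array it had a lowest value of 744, a median of 789 and a highest value of 828. The spots of the arrays did not overlap. They are technical repeats, and how common such separation is over all probes is not given here. The 12-base probe ran from 1326 through a median of 1372 to 1407 over 17 usable control spots, and from 755 through 795 to 853 over 20 spots of the other array. Its spots did not overlap either, and its difference of -0.78 ± 0.01 stood beside -0.74 ± 0.01 for the 11-base probe. On the control array 4 of the 40 miR-3960 spots were marked as outliers by the scanner software and left out, and on the Col2a1Tsc1KO array none of the 40 was. With these spots kept, the difference was -0.74.

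For miR-2861, the 9-base probe had a scaled intensity between 180 and 206 on the control array, with a median of 192, and between 199 and 231 on the Col2a1Tsc1KO array, with a median of 211, over 20 spots each. Its spots overlapped in part of the range. The 10-base probe ran from 183 through a median of 202 to 220 on the control array and from 184 through 216 to 238 on the other, and here the spots of the arrays overlapped over most of their range. The probes differed by 0.15 ± 0.02 and 0.07 ± 0.03, so that they lay 0.08 ± 0.04 apart. At matched positions on the arrays, the Col2a1Tsc1KO spot was the higher for 36 of 40 spots of miR-2861 and for 0 of 36 usable spots of miR-3960. Without scaling these counts were 40 of 40 and 0 of 36. Such spots are not replicates of a group, and no share over all probes is given here.

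**Figure D1:**
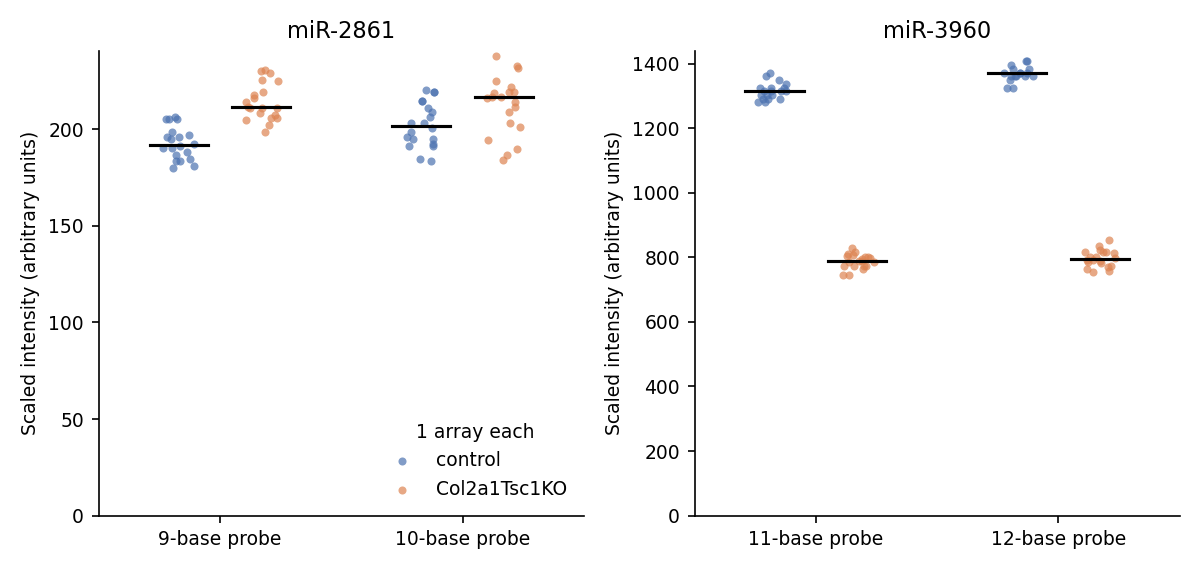
Scaled intensity (vertical axis, arbitrary units, from 0) of each usable spot of the 4 probes, with 1 point per spot and a bar at the median, for the control array (blue) and the Col2a1Tsc1KO array (orange). The miR-3960 spots of the arrays are separate, with medians of 1314 and 1372 on the control array against 789 and 795, while the miR-2861 spots overlap. Spots are technical repeats on 1 array per group.

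On either array all 40 spots of each miRNA stood well above background, and none was saturated. Before scaling, the median intensities of miR-2861 were 166.5 and 175 on the control array and 243.5 and 249.5 on the Col2a1Tsc1KO array, and those of miR-3960 were 1140 and 1190 against 909.5 and 916.5. Negative-control spots had a median of 5.02 on the control and 4.93 on the Col2a1Tsc1KO array. Without scaling the miR-2861 difference was 0.52, or 1.43-fold higher, and that of miR-3960 was -0.35, or 1.27-fold lower. A scaling by a constant moves both by the same amount, which at the main setting was the 0.41 by which the 75th percentiles differed. What such a scaling leaves in place is the gap between the differences, which was 0.87 ± 0.02 on the log2 scale, or 1.83-fold.

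Among all 257 measured miRNAs, whose differences had a median of -0.22 and ran from -1.81 to 2.36, miR-3960 stood 67th from the lowest and miR-2861 94th from the highest. Relative to that median, miR-2861 lay 0.33 above and miR-3960 0.54 below. The middle of the distribution, between the quartiles, ran from -0.76 to 0.49, so that miR-2861 lay inside it and miR-3960 at its lower edge. An absolute difference smaller than that of miR-2861 was found for 21 miRNAs. The closest differences to that of miR-2861 were those of miR-3081-5p at 0.12 ± 0.04, miR-361-5p at 0.12 ± 0.04 and miR-212-3p at 0.13 ± 0.08, each of which turns negative with the mean signal minus local background. Closest to miR-3960 were miR-1186b at -0.76 ± 0.08, miR-17-3p at -0.76 ± 0.06 and miR-3096b-5p at -0.74 ± 0.08, the first and second of which turn positive with the software's total gene signal. With 2 arrays this likeness rests on a single difference.

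**Figure D2:**
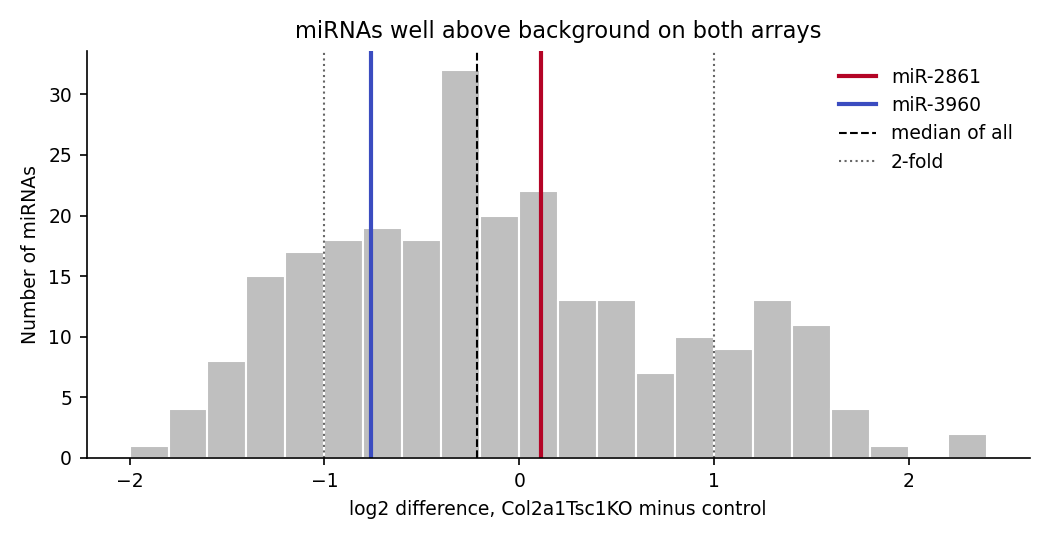
Number of miRNAs (vertical axis) by log2 difference, Col2a1Tsc1KO minus control (horizontal axis), for the 257 miRNAs well above background on both arrays, with both cluster miRNAs as coloured lines, the median as a dashed line and 2-fold as dotted lines. miR-2861 at 0.11 lies above and miR-3960 at -0.76 below the median of -0.22, and both lie within 2-fold.

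The directions of both miRNAs were kept under all 15 alternative ways of processing, while their sizes moved under many of them. Not all of the 15 are separate checks of the pair. Asking for every spot well above background, or keeping all probes with a floor, returned the main values. The brightest probe and the longest probe gave the same values, 0.07 and -0.78. miR-2861 ranged from 0.07 to 0.54 and miR-3960 from -1.04 to -0.33. The gap between them ranged from 0.79 to 1.34. miR-3960 passed 2-fold under quantile normalization, at -1.04, where 14.0% of 257 miRNAs were at least 2-fold lower, and in the log2 values that the submitters deposited, at -1.02, where 17.8% of 304 miRNAs were at least 2-fold lower. In those deposited values miR-3960 had 10.10 for control and 9.08 for Col2a1Tsc1KO, and miR-2861 had 7.28 and 7.38, a difference of 0.11. With no scaling, where 5.06% of miRNAs were at least 2-fold lower and 23.0% at least 2-fold higher, neither miRNA passed.

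**Figure D3:**
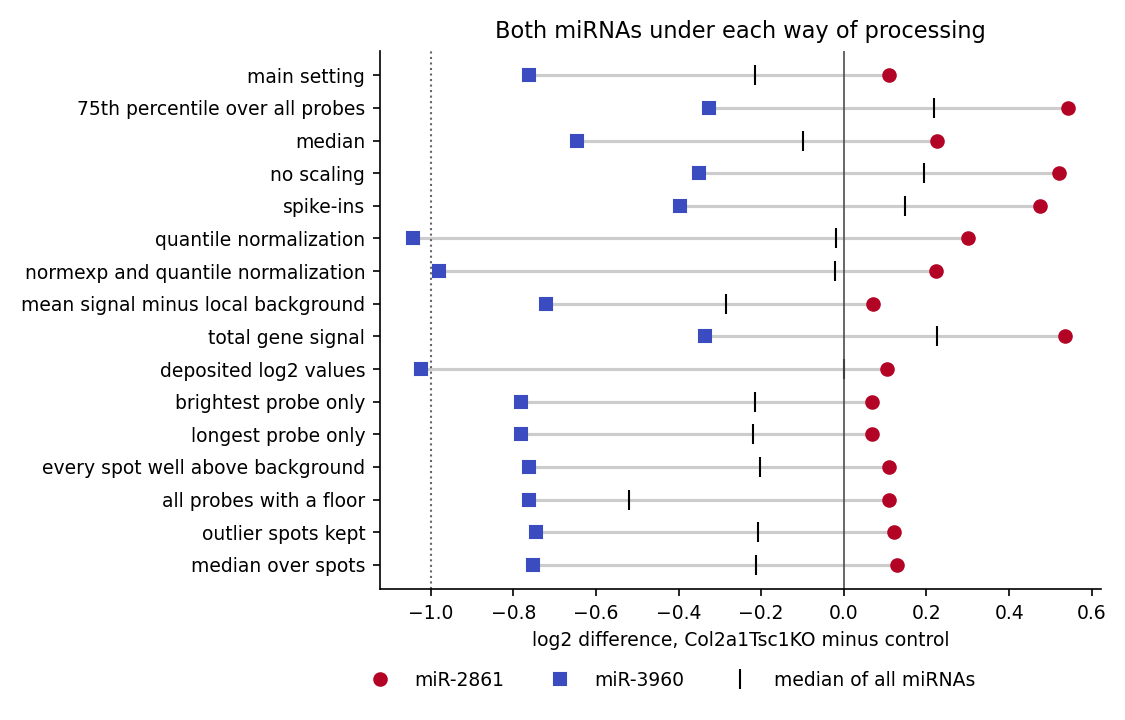
log2 difference, Col2a1Tsc1KO minus control (horizontal axis), of miR-2861 (circles), miR-3960 (squares) and the median of all miRNAs (ticks) at the main setting and 15 alternatives (vertical axis), with a dotted line at 2-fold lower. miR-2861 stays above 0, from 0.07 to 0.54, and miR-3960 stays below 0, from -1.04 to -0.33.

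Neighbouring hairpins are often cut from a shared transcript, so the gap within the pair was set beside that of other close pairs. Of the miRNAs measured on both arrays, 164 had a single hairpin in the RefSeq table, and they formed 18 pairs whose hairpins lie on the same strand with at most 1000 bases between them. In the other 17 pairs the gap between the differences had a median of 0.37 and ran from 0.003 to 2.42, and 3 of the 17 were wider apart than miR-2861 and miR-3960. These were let-7e-5p with miR-125a-3p at 2.42, miR-144-3p with miR-451a at 0.96 and miR-17-3p with miR-18a-5p at 0.95. With the other arm of the same hairpin, let-7e-5p and miR-125a-5p lay 0.13 apart and miR-17-5p and miR-18a-5p 0.03 apart. Opposite signs were found in the cluster described here and in 1 of the 17 others, let-7e-5p with miR-125a-3p. Many of the 17 share members, since they come from few clusters, and the signs depend on the scaling while the gaps do not change under a constant. This comparison was chosen after the data were seen.

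The base composition of the pair was extreme for the array. Only 1 measured miRNA had a higher G and C content than miR-2861, and the median was 50%. For miR-3960 the longest probe, of which 91.7% is G or C, stood in for the mature sequence, as it did for 63 of the 257. No measured miRNA had a shorter longest probe than the 10 bases of miR-2861, and the median was 17 bases. The other 13 measured miRNAs with at least 75% G or C had a median difference of -0.48, against -0.22 over all 257, and 12 of the 13 were negative, against 152 of the 257. These counts depend on the scaling: with no scaling 8 of the 13 and 100 of the 257 were negative, and with the software's total gene signal 6 of the 13 and 122 of 304. Among these 13, 3 lay below miR-3960 and 1 lay above miR-2861. The highest of this group were miR-2137 at 0.33 ± 0.02, miR-2861 itself and miR-3077-5p at -0.08 ± 0.05, and the lowest were miR-5115 at -1.81 ± 0.09, miR-714 at -1.16 ± 0.08 and miR-328-5p at -0.93 ± 0.02. The group's median ran from -0.58 to 0.06 over the alternatives, was positive with the software's total gene signal, and was below the median of all miRNAs in 14 of the 15. The exception kept every probe at a floor. miR-3077-5p turns positive under 8 alternatives, miR-6538 under 7, miR-149-3p under 5 and miR-5126 under 4, and miR-714 and miR-5115 turn positive with the total gene signal. Across the 257 miRNAs G and C content was correlated with the difference at Pearson's r = -0.16 and Spearman's rho = -0.16, or -0.17 and -0.20 over the 194 with a mature sequence in the RefSeq table. The length of the longest probe was correlated with it at r = 0.27 and rho = 0.27. The correlations are weak, and the points share the same 2 arrays and are not independent. What part base composition and probe length have in the values of the pair was not tested.

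**Figure D4:**
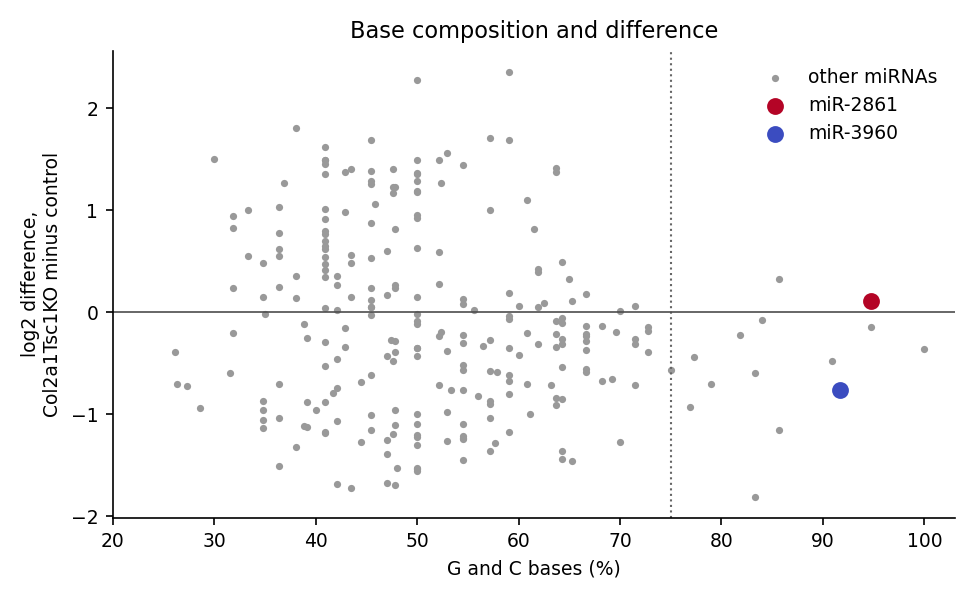
log2 difference, Col2a1Tsc1KO minus control (vertical axis), against the share of G and C bases in percent (horizontal axis) for 257 miRNAs, with a dotted line at 75%. miR-2861 and miR-3960 lie at the right edge, at 94.7% and 91.7%, where most miRNAs lie below 0 at the main setting.

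Other miRNAs known to favour osteoblast formation stood, for the most part, higher on the Col2a1Tsc1KO array than this pair. Of 12 listed, 11 could be measured on both arrays, with a median difference of 0.49 against -0.22 over all 257, and 8 were positive and 3 negative. Without miR-2861 and miR-3960 the median of the other 9 was 0.62. At least 2-fold higher were miR-218-5p, which represses inhibitors of Wnt signalling, at 1.80 ± 0.04, the Hox cluster miRNA miR-196a-5p at 1.499 ± 0.03, and the hypoxia-induced miR-210-3p at 1.42 ± 0.03. The collagen-targeting miRNAs miR-29c-3p, miR-29a-3p and miR-29b-3p were at 0.78 ± 0.02, 0.62 ± 0.01 and 0.49 ± 0.02, and miR-322-5p, of the miR-15 family, at 0.42 ± 0.02. Below miR-2861 stood miR-15b-5p of the same family at -0.52 ± 0.01, miR-3960, and miR-20a-5p, a growth-linked member of the miR-17 cluster, at -1.13 ± 0.01, which was 2.19-fold lower. miR-335-5p was well above background on the Col2a1Tsc1KO array alone, at least 2.10-fold higher against the lowest control signal well above background. The list's median was positive under all 15 alternatives, from 0.38 to 1.01, while the median of all miRNAs ran from -0.52 to 0.23.

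miRNAs known to repress Runx2 itself formed a second list of 11, of which 6 could be measured on both arrays. Their median was 0.36, with 4 positive and 2 negative, and it was positive under all 15 alternatives, from 0.17 to 1.03. miR-218-5p, which is on both lists, and miR-23a-3p at 1.23 ± 0.01 were at least 2-fold higher. miR-30c-5p was at 0.49 ± 0.04 and miR-204-5p, a repressor of Runx2 that favours fat cells, at 0.24 ± 0.04, which turns negative with the mean signal minus local background and with a floor. miR-338-3p was at -0.29 ± 0.04, which turns positive under 4 alternatives, and the muscle miRNA miR-133a-3p at -0.99 ± 0.02. miR-34c-5p was well above background on the Col2a1Tsc1KO array alone, at least 1.02-fold higher by the same bound, and miR-135a-5p, miR-137-3p, miR-205-5p and miR-217-5p were not so on either array. The 2-fold threshold was thus passed upward by 3 of 11 and 2 of 6 measured members of the lists, against 15.6% of all miRNAs. It was passed downward by 1 of 11 and 0 of 6, against 17.5%. miR-218-5p counts in both lists, which were chosen with earlier results of these data known.

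**Figure D5:**
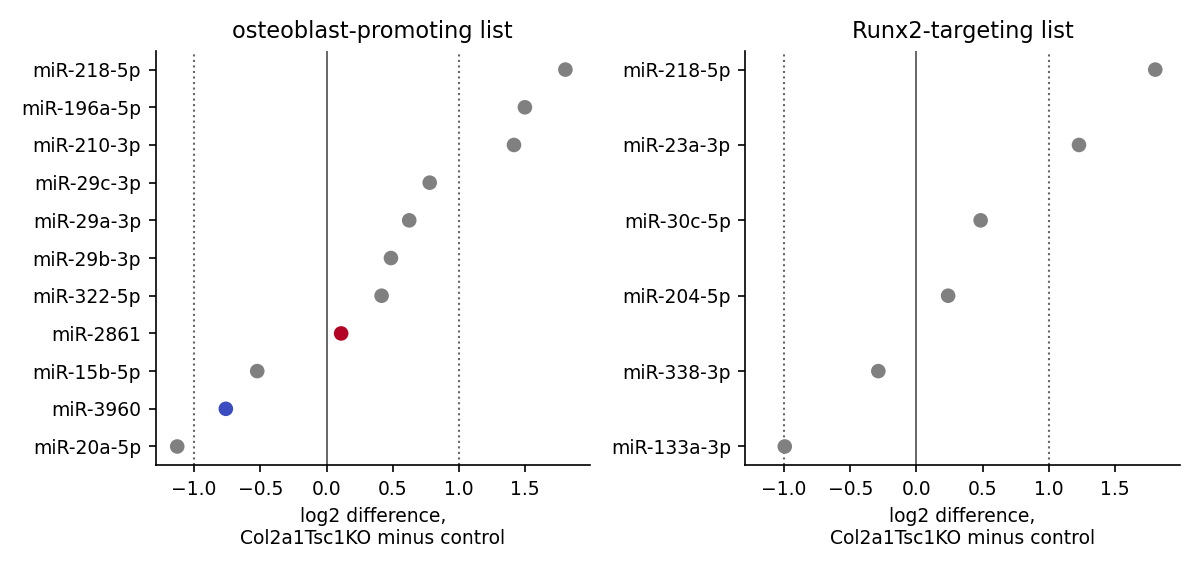
log2 difference, Col2a1Tsc1KO minus control (horizontal axis), with SE over spots (bars, mostly smaller than the points), of the 11 osteoblast-promoting and 6 Runx2-targeting miRNAs well above background on both arrays, with dotted lines at 2-fold. miR-2861 (red) and miR-3960 (blue) stand among the 4 lowest of the osteoblast-promoting list.

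The cartilage markers miR-140-5p and miR-140-3p were bright on both arrays and higher on the Col2a1Tsc1KO array, at 1.38 ± 0.01 and 1.01 ± 0.01. Higher there too was miR-455-3p at 1.71 ± 0.05, while miR-455-5p was at -0.03 ± 0.14, which changes sign under 9 alternatives. Leukocyte miR-223-3p and red cell miR-451a were brighter than both miR-140 arms on either array. On the control array their scaled intensities were 8163 and 2308, against 1046 for miR-140-5p and 1197 for miR-140-3p. Of 13 markers of other cell types on 4 lists, 12 were measured on both arrays, and the 2-fold threshold was passed upward by 1 and downward by 1 of the 12, against 15.6% and 17.5% of all miRNAs. Over 4 skeletal muscle miRNAs the scaled intensities summed to 1410 for control and 737 for Col2a1Tsc1KO, and over 4 leukocyte miRNAs to 9633 and 4454. Both sums differ in the direction of miR-3960, with 3 of 4 members of each list negative, against 152 of all 257 miRNAs. The leukocyte sum was made mostly of miR-223-3p, at 8163 for control and 3632 for Col2a1Tsc1KO. Positive were leukocyte miR-150-5p at 0.64 ± 0.06, which changes sign under 1 alternative, and muscle miR-206-3p at 0.05 ± 0.08, which does so under 4. The sum stood at 2340 and 3472 over the 2 red cell miRNAs and at 1555 and 1977 over the 2 endothelial miRNAs, sums made almost wholly of miR-451a and miR-126-3p. The difference of miR-451a turns negative under 2 alternatives, that of miR-126-3p under 3 and that of miR-126-5p under 2. The part of these markers in the values of miR-2861 and miR-3960 was not tested.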

How the data were processed

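Levels came from 1-colour Agilent mouse miRNA arrays, 1 per group. Agilent Feature Extraction 10.7 (per the submitters' processing notes, and per the file headers) wrote the deposited intensity of each spot, background-subtracted with spatial detrending, along with a mean and a local background intensity, with no scaling between arrays. The submitters also deposited log2 values, 1 per miRNA (method not given in the sources used here).

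Outlier spots were dropped, spots of the same probe were averaged on the log2 scale, and a probe counted as well above background when over 50% of its spots were so marked. The 75th percentile of the 476 probes passing on both arrays set the scale, and a miRNA's difference was the mean over such probes. Scaled intensities were put back on a common level. Python 3.11.15, R 4.3.3 and limma 3.58.1 (normexp, offset 50) were used, and the steps were tested on simulated data.

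The 2 miRNAs and the lists were chosen with earlier results of these data known. miRNAs were named when on the osteoblast, Runx2 or marker lists, among the 3 closest in difference, or the 3 highest or lowest with at least 75% G and C. Those that share the seed of miR-2861 or nearly match a probe target were named too. After their values were seen, the pairs of neighbouring hairpins were named. So were miR-6538, miR-149-3p and miR-5126, for their change of sign, and miR-709, the highest of those with no probe longer than 12 bases. Red cell miR-486-5p was not analysed here, since the array has no entry under that name. Both arrays lay on 1 slide, so array position and group cannot be told apart.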

Additional observations from a re-analysis of the deposited data

How the results depend on the processing

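Differences are log2, Col2a1Tsc1KO minus control, 0.11 for miR-2861 and -0.76 for miR-3960 at the main setting. They became 0.54 and -0.33 with all probes behind the 75th percentile, 0.23 and -0.64 with the median, 0.52 and -0.35 with no scaling, 0.48 and -0.40 with the 4 spike-ins, 0.30 and -1.04 with quantile normalization, 0.22 and -0.98 after normexp and quantile normalization, and 0.53 and -0.34 with the software's total gene signal. The deposited log2 values moved miR-3960 alone, to -1.02. The other settings (mean signal minus local background, brightest or longest probe, every spot well above background, a floor, outliers kept, median over spots) moved neither by more than the SD over spots. The count at least 2-fold higher, 40, became 16 after normexp and quantile normalization (40 with quantile alone) and 73 of 304 with total gene signal, which is unscaled (59 of 257 with no scaling). Of 45 miRNAs at least 2-fold lower, the count went to 13 when unscaled, 13 with all probes behind the percentile, 14 on spike-ins, 9 after normexp and quantile normalization (36 with quantile alone) and 27 of 304 with total gene signal. The overall median moved by 0.43 with all probes behind the percentile, by 0.41 when unscaled, by 0.36 on spike-ins, by 0.20 after quantile normalization, with or without normexp, by 0.12 with median scaling, by 0.44 with total gene signal, by 0.22 in the deposited values and by -0.30 with a floor. No paired analysis was possible because each group has 1 array, and for the same reason no array could be left out. The number of arrays limits the precision, and all spots of the pair were well above background.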

Other observations

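A group of miRNAs shared short probes with the pair, and overlaps the G- and C-rich group described above. Besides miR-2861 and miR-3960, 10 measured miRNAs had no probe longer than 12 bases, and their median log2 difference, Col2a1Tsc1KO minus control, was -0.29 against -0.21 for the 245 with longer probes. Of the 10, 7 are also among the 13 miRNAs with at least 75% G or C. Of these 10, 9 were negative, from miR-5115 at -1.81 to miR-6538 at -0.14 and miR-3077-5p at -0.08, and miR-709 was at 0.18 ± 0.01. The group's median ran from -0.36 to 0.25 over the alternatives and turned positive under 4 of the 15, where the median of all miRNAs was positive too. It was below the median of all miRNAs in 13 of the 15. This group was chosen after the data were seen.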
